A study of Mus musculus with 30 samples.

Results

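Lactobacillaceae are Gram-positive bacteria of the order Lactobacillales, and the genus Lactobacillus and the genus Pediococcus belong to them. They ferment sugars to lactic acid, tolerate the acid they make, and colonise the forestomach and the intestine of mice, from where they pass into the feces. Some species, such as Lactobacillus helveticus and Lactobacillus delbrueckii, are best known from fermented milk, while others, such as Lactobacillus vaginalis and Lactobacillus salivarius, are known from mucosal surfaces of mammals. The family was followed here as amplicon sequence variants (ASVs), that is, as sequences of the bacterial 16S rRNA gene (the study's methods speak of clusters of similar sequences), each with a count per mouse and a taxonomic label. Its members were all ASVs that the deposited taxonomy placed in Lactobacillaceae and that had at least 1 count in the mice. There were 471 such ASVs among 12980 ASVs in all, which is 3.63%, and all 471 carried the same lineage from phylum to family.

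The samples were feces of 30 female mice, labelled C57BL/6 and 6 weeks old (C57BL/6J in the study's text), with 6 mice in each of 5 groups. In the study's text 6 weeks is the age at purchase, and feces were collected at the end of treatment. Control mice had the normal diet and saline by gavage, and model mice had the high-fructose diet (HFru, 60% fructose) and saline. In the 3 other groups HFru was combined with a compound by gavage, at 50 mg/kg for salidroside, 23 mg/kg for tyrosol and 26 mg/kg for hydroxytyrosol. Salidroside is the glucoside of tyrosol, hydroxytyrosol is tyrosol with an additional phenolic hydroxyl group, and the doses of tyrosol and hydroxytyrosol were set by molar conversion from salidroside. The stated length of feeding was 8 weeks in the study's methods, and that of treatment 12 weeks in its abstract and legends. Each mouse is named after its group with the number in its sample title. The labels give no cage and no sequencing batch, so p-values measure the spread between these mice only.

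The mice had from 41862 to 106609 counts each, and after the authors' filters all model mice (87731 or more) had more counts than all control mice (83876 or fewer), while their input reads overlapped (115045 to 145479 in model and 70771 to 144629 in control mice). A share is the percent of all counts of a mouse. Shares are relative, so fewer lactobacilli and more of other bacteria cannot be told apart. Intervals on the share of a single mouse are 95% Wilson intervals, and 0 counts were read as at most 3 counts, which is a share of 0.00281% to 0.00717% depending on the mouse. Both cover counting error only, since PCR reads carried no molecular identifiers.

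The family was found in all 30 mice and held 142836 counts, 5.47% of all counts. Lactobacillus made up 99.7% of them with 404 ASVs. Pediococcus had 19 ASVs and 116 counts, and 48 ASVs with 245 counts had no genus. Most of the Lactobacillus counts had no species label. ASVs labelled unclassified Lactobacillus (88 ASVs, 65515 counts) and unidentified Lactobacillus (246 ASVs, 60506 counts) together with Lactobacillus vaginalis (21 ASVs, 10285 counts) were the 3 most abundant labels, and the taxonomy does not state how unclassified and unidentified differ. The other species labels were Lactobacillus helveticus (9 ASVs, 4022 counts), Lactobacillus salivarius (18 ASVs, 1202 counts), Lactobacillus hamsteri (6 ASVs, 818 counts), Lactobacillus delbrueckii (5 ASVs, 74 counts), Lactobacillus pontis (7 ASVs, 36 counts), Lactobacillus ruminis (2 ASVs, 10 counts) and Lactobacillus acidipiscis (2 ASVs, 7 counts). Pediococcus was divided into unclassified Pediococcus (17 ASVs, 103 counts) and Pediococcus cellicola (2 ASVs, 13 counts).

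The counts were concentrated in few ASVs. ASV_22018, an unclassified Lactobacillus, held 35.0% of the family counts and was the only member found in all 30 mice. ASV_73525, an unidentified Lactobacillus, held 31.2% and was absent from model 4 alone. The 8 members with the highest mean share held 81.9%. At the other end, 326 of the 471 members (69.2%) were found in 1 mouse only and held 3.31% of the family counts. Across all ASVs of the series 71.1% were found in 1 mouse only, so the family was close to the rest in this respect. The median member had 4 counts in total, and 330 members had under 10.

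The first question was how the diet and the compounds changed the share of the family. In control mice 1 to 6 it was 3.43%, 13.5%, 36.2%, 11.8%, 13.5% and 5.58%. In model mice 1 to 6 it was 0.967%, 2.69%, 0.517%, 2.12%, 2.42% and 0.620%. Every model mouse was below every control mouse. The Wilson interval of the highest model mouse ran from 2.58% to 2.79%, and that of the lowest control mouse from 3.30% to 3.56%. The mean fell from 14.0% ± 11.7 (SD, n = 6) to 1.56% ± 0.964 (SD, n = 6), a 9.0-fold difference. The difference of -12.4 percentage points (95% interval -23.3 to -3.76) gave p = 0.0022 in a two-sided exact permutation test, the smallest p that 6 against 6 mice can give, and 0.00866 after adjustment over the 4 comparisons with model or control. Of all 58 families tested, 3.45% lay wholly lower in the model mice. Leaving out any 1 of the 12 mice kept p under 0.05, and without control 3 the difference was -8.0 points.

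Values outside the family moved with this difference. Acinetobacter, a genus of aerobic Proteobacteria, held a median of 9.98% of the counts in control mice (range 0.0453% to 55.4%) and 59.0% in model mice (0.166% to 84.2%). With Acinetobacter left out of the totals, the family share was 16.2% ± 10.3 in control mice and 4.54% ± 3.24 in model mice (SD, n = 6 each), a difference of -11.7 points, with p = 0.00649 by the exact permutation test, and the groups then overlapped. The share of merged reads that remained after chimera removal was 57.7% to 72.5% in control mice and 71.2% to 91.0% in model mice, and its part in the result was not tested. Within the phylum Firmicutes, to which the family belongs, it made up 32.3% ± 19.7 in control mice and 7.46% ± 4.50 in model mice (SD, n = 6 each).

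**Figure D1:**
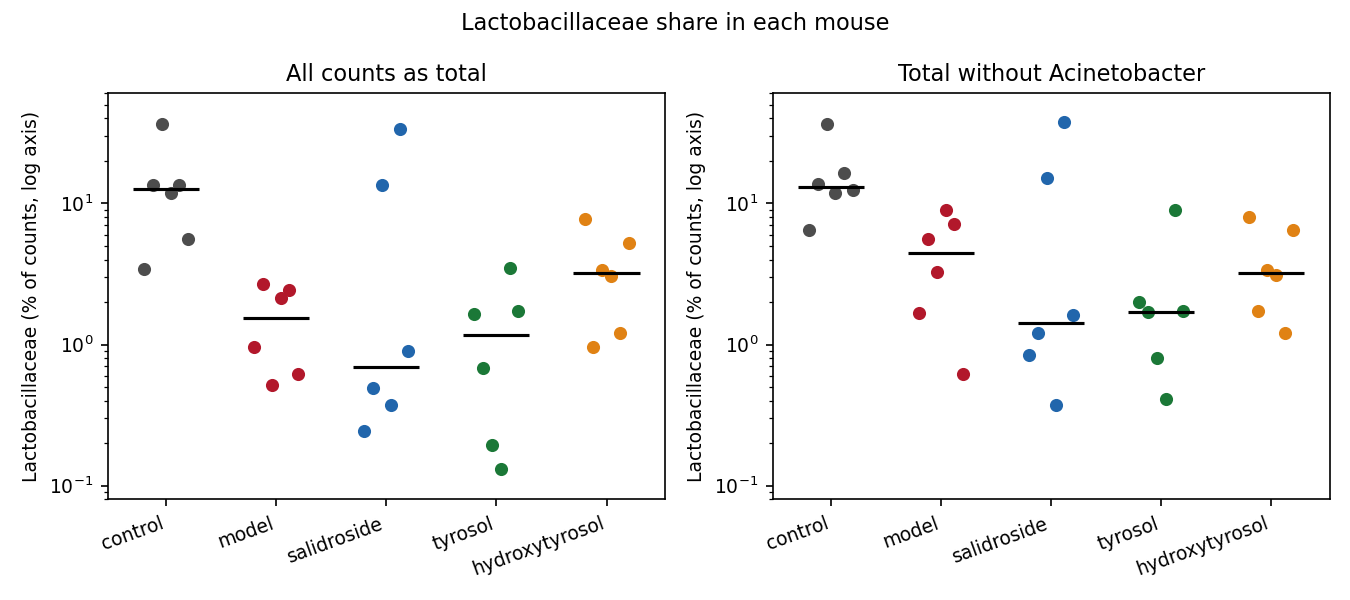
Lactobacillaceae share of each mouse on a log axis, as percent of all counts (left) and as percent of counts without Acinetobacter (right). Each point is a mouse and each bar the median of its group; on the left all model mice (0.517% to 2.69%) lie below all control mice (3.43% to 36.2%), and salidroside mice 3 and 5 stand far above the other salidroside mice.

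The treated groups did not differ from the model group beyond their spread. All 3 of these comparisons use the same model mice. In salidroside mice 1 to 6 the family held 0.245%, 0.491%, 13.6%, 0.373%, 33.9% and 0.900%. Salidroside mice 3 and 5 were thus at the level of control mice, while 3 of the others were below all model mice and the remaining 1, at 0.900%, among the lower ones. The mean was 8.24% ± 13.6 (SD, n = 6), with a difference from model of 6.68 points (interval -1.83 to 16.6) and exact permutation p = 0.444. Without salidroside 5 the difference was 1.56 points. A salidroside mouse was higher in 14 of 36 pairs with a model mouse, so the mean was higher and the mean rank lower (by -1.33 ranks).

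In tyrosol mice 1 to 6 the share was 1.65%, 0.684%, 0.194%, 0.132%, 3.50% and 1.72%. These values spanned more than the range of the model mice, with the 2 lowest below and the highest above all of them. The mean of 1.31% ± 1.27 (SD, n = 6) differed from model by -0.244 points (interval -1.66 to 1.2), with exact permutation p = 0.714. With Acinetobacter left out of the totals the difference was -1.94 points (exact permutation p = 0.338). In hydroxytyrosol mice 1 to 6 it was 7.72%, 0.965%, 3.36%, 3.05%, 1.198% and 5.28%. Of these, 4 mice were above all model mice. The mean of 3.60% ± 2.56 (SD, n = 6) was 2.04 points above model (interval -0.289 to 4.75), higher in 29 of 36 pairs, with exact permutation p = 0.0952 and 0.190 after adjustment over the 4 comparisons. Acinetobacter moved with this difference too, with a median of 2.44% in hydroxytyrosol mice, and with it left out of the totals the difference was -0.566 points (exact permutation p = 0.753). Over all 5 groups the Kruskal-Wallis statistic of the share was 11.5, with a permutation p of 0.0123.

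The compounds were also compared with each other in 3 pairs, with p-values adjusted over them. Salidroside and tyrosol, which differ by the glucose unit, were 6.93 points apart (interval -1.66 to 17.0), with exact permutation p = 0.398 and adjusted p = 0.554. Hydroxytyrosol and tyrosol, which differ by the additional hydroxyl group, were 2.28 points apart (interval -0.291 to 4.98), with hydroxytyrosol higher in 28 of 36 pairs, exact permutation p = 0.0779 and adjusted p = 0.234. Acinetobacter had a median of 60.2% in tyrosol mice, and with it left out of the totals the difference was 1.37 points (exact permutation p = 0.413). Salidroside and hydroxytyrosol were 4.64 points apart (interval -4.90 to 16.1), with exact permutation p = 0.554 and the same value after adjustment, although salidroside was higher in only 12 of 36 pairs. None of the 3 pairs passed the test, which does not show that the compounds act alike. Without salidroside 5 the difference of salidroside from tyrosol was 1.80 points, and that from hydroxytyrosol turned to -0.481 points.

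**Figure D2:**
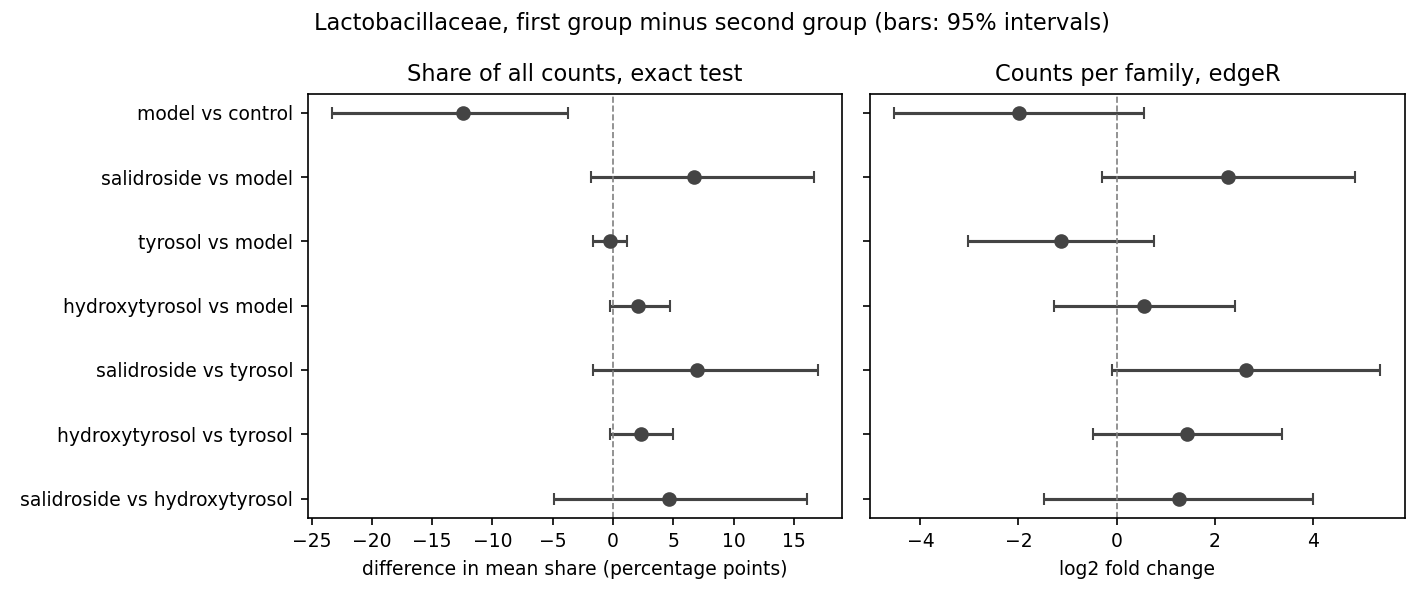
Lactobacillaceae in the 7 comparisons: difference in mean share in percentage points with the 95% interval of the exact test (left), and log2 fold change of counts with a 95% interval derived from the edgeR test (right), first group minus second group. On the left the interval of model against control lies below 0, and the 6 others include 0; on the right all 7 intervals include 0.

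Counts were also tested family by family with edgeR's quasi-likelihood test, which scales each mouse by the bulk of its families (TMM) rather than by its total. On this scale the family passed in 0 of the 7 comparisons, at an adjusted or at an unadjusted p under 0.05. In model against control mice its log2 fold change was -1.99 (SE 1.27, interval -4.53 to 0.56, edgeR adjusted p = 0.261), where the median of all families was 0.60 and 17.2% of the 58 families passed. Without TMM the median family stood at -0.16 and the log2 fold change was -3.17. DESeq2 gave -2.14 with adjusted p = 0.0329, and over all alternatives the adjusted p ran from 0.0329 to 0.431. DESeq2 called the family in 0 of the other 6 comparisons.

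Against model mice the edgeR log2 fold change was 2.28 with salidroside (SE 1.30, adjusted p = 0.265, 13.2% of families called), -1.14 with tyrosol (SE 0.913, adjusted p = 0.413, 3.33% called) and 0.57 with hydroxytyrosol (SE 0.889, adjusted p = 0.700, 11.9% called). The median of all families stood at -0.60, -1.07 and -1.001 in these comparisons, so that the tyrosol value lay -0.06 from it. Without TMM the 3 values were 2.41, -0.25 and 1.21, with the median family at -0.53, -0.46 and -0.56. Signs were not stable for tyrosol and hydroxytyrosol, with 0.0296 for tyrosol without model 2 and -0.13 for hydroxytyrosol without hydroxytyrosol 1. The salidroside value was -0.0135 with the replicate number as a block. These numbers did not pair the mice (same-number correlations -0.465 to 0.397), so a change with this block does not show that a result is unstable. The difference between salidroside and tyrosol was 2.64 (interval -0.10 to 5.38, edgeR adjusted p = 0.290), between hydroxytyrosol and tyrosol 1.44 (interval -0.49 to 3.37, adjusted p = 0.318) and between salidroside and hydroxytyrosol 1.26 (interval -1.47 to 4.0, adjusted p = 0.714). The last turned to -1.32 with the replicate block and to -0.38 with centred log-ratios. In these pairs 2.04%, 1.82% and 0% of all families were called.

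The dominant ASV, the member with the highest count in a mouse, was ASV_22018 in 25 mice and ASV_73525 in 5. ASV_73525 led in control 3, control 5, model 2, model 3 and salidroside 5. All 6 tyrosol and all 6 hydroxytyrosol mice were led by ASV_22018. Its part of the family ranged from 1.40% in control 3 to 89.8% in control 6. It varied least in the tyrosol group, where it was 53.4% ± 3.27 (SD, n = 6), compared with 46.9% ± 35.3 in control, 40.5% ± 17.1 in model, 54.7% ± 19.8 in salidroside and 49.9% ± 16.1 in hydroxytyrosol mice (SD, n = 6 each). These spreads were not tested against each other.

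As percent of all counts, ASV_22018 was at 0.507% to 9.07% in control mice (median 3.53%) and at 0.109% to 1.28% in model mice (median 0.489%). It ranged from 0.168% to 9.25% in salidroside mice, where mice 3 and 5 were the only ones above 0.336%, from 0.0705% to 1.7% in tyrosol mice and from 0.441% to 5.49% in hydroxytyrosol mice. The groups overlapped in every comparison. The log2 fold change in model against control mice was -2.58 (SE 2.11, edgeR adjusted p = 0.402).

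ASV_73525 had the widest range of all members. It held 27.4% of all counts in control 3, and 0.0108% in control 6 (median of control mice 1.07%). In salidroside 5 it held 14.6%, while the other salidroside mice lay between 0.0442% and 0.163%. The model mice ranged from 0 counts to 0.725%, the tyrosol mice from 0.0422% to 0.677% and the hydroxytyrosol mice from 0.103% to 1.195%. It passed the adjusted test in 0 of the 7 comparisons, and had an unadjusted edgeR p of 0.0176 in salidroside against model mice (log2 fold change 5.19, adjusted p = 0.286) and of 0.0135 in salidroside against tyrosol mice (4.88, adjusted p = 0.379).

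**Figure D3:**
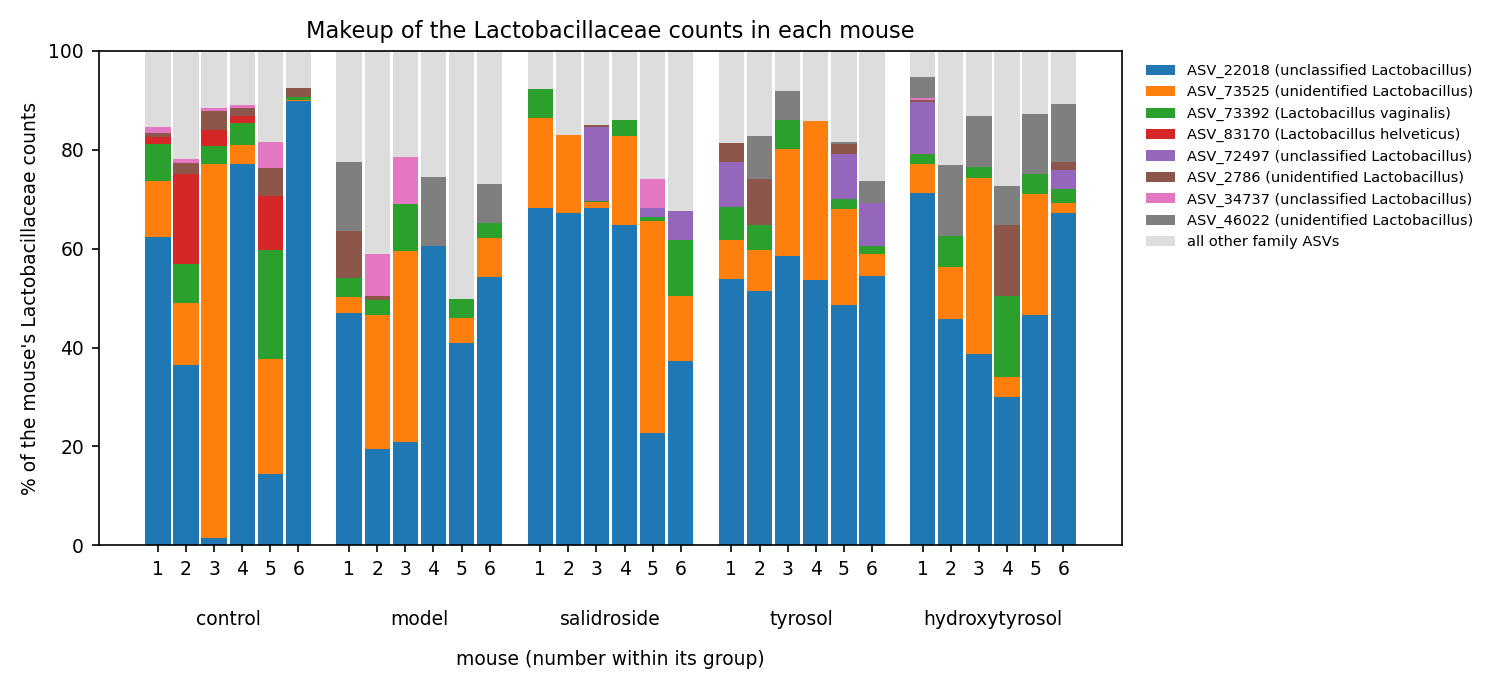
Makeup of the Lactobacillaceae counts of each mouse in percent, with the 8 ASVs of highest mean share in colour and all other members in grey. ASV_22018 is the largest part in 25 mice; in control 3 it is 1.40% and ASV_73525 is 75.7%, and ASV_83170 appears in control mice only.

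The labels were next compared between groups, over all labels of the table. In model against control mice 5 labels of the family were tested among 117 labels in all. Lactobacillus helveticus, a species of fermented milk, was the only one of them called by edgeR (19.7% of all labels were called, 9.4% as lower). Its log2 fold change was -5.37 (SE 1.92, edgeR adjusted p = 0.0444). The call was lost without the filter on low counts and with the replicate number as a block, although these numbers did not pair the mice. The adjusted p ran from 0.000546 to 0.105 over the alternatives. In control mice it held 0.883% ± 0.986 (SD, n = 6; 0 counts to 2.46%), and in model mice at most 0.0279%.

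The label covered different sequences in the 2 diets. All 3926 counts of Lactobacillus helveticus in control mice belonged to ASV_83170. It was at 0.0464%, 2.46%, 1.12%, 0.186% and 1.48% in control mice 1 to 5 and at 0 counts in control 6 and in all 24 mice on HFru. The 96 counts of the species in HFru mice came from 8 other ASVs, spread over 9 mice and with 0 counts in control mice.

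Unidentified Lactobacillus was at 0.209% to 32.0% in control mice (median 2.55%) and at 0.143% to 0.943% in model mice (median 0.344%), with a log2 fold change of -3.93 (SE 1.64, edgeR adjusted p = 0.0757). Lactobacillus vaginalis, a species first found in the human vagina, was at 0.0335% to 3.54% in control mice (median 1.04%) and at 0 counts to 0.515% in model mice (median 0.0523%), with -2.78 (SE 1.61, edgeR adjusted p = 0.214). Unclassified Lactobacillus was at 0.852% to 9.22% in control mice and 0.187% to 1.71% in model mice, with -1.58 (SE 1.42, edgeR adjusted p = 0.433). All of these ranges overlapped. ASVs with no genus gave -0.70 (edgeR adjusted p = 0.759).

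In the other 6 comparisons 3 to 5 labels of the family were tested and edgeR and DESeq2 each called 0 of them, where edgeR called 0.826%, 3.03% and 4.96% of all labels with salidroside, tyrosol and hydroxytyrosol against model, 0.877% in salidroside against tyrosol and 0% in the other 2 pairs. At an unadjusted p under 0.05 there was 1 of 3 in salidroside and 1 of 3 in hydroxytyrosol against tyrosol, where 8.77% and 17.9% of all labels were. Unidentified Lactobacillus gave 3.33 in salidroside against tyrosol mice (SE 1.5, interval 0.16 to 6.51, edgeR adjusted p = 0.465). Lactobacillus vaginalis gave 2.79 in hydroxytyrosol against tyrosol mice (SE 1.196, interval 0.22 to 5.35, edgeR adjusted p = 0.256), with 0.0473% to 0.535% in hydroxytyrosol and 0 counts to 0.125% in tyrosol mice.

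Some rare labels were found on 1 side of the diet only. Lactobacillus pontis was found in 3 control mice and had 0 counts in all HFru mice, and Lactobacillus delbrueckii was found in 9 HFru mice and had 0 counts in control mice. Their totals were 36 and 74 counts, with at most 30 and 16 in a mouse, and neither passed the filter for a test. Lactobacillus hamsteri, named after the hamster, had 742 of its 818 counts in control mice 2, 3 and 5, and 55 in hydroxytyrosol mice 1, 2, 3 and 5. Of the 1202 counts of Lactobacillus salivarius, 1128 came from salidroside 5.

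The number of members per mouse was taken from the table that the authors rarefied to 39768 counts per mouse. Control mice 1 to 6 had 34, 80, 86, 35, 97 and 23 members, and model mice 1 to 6 had 24, 37, 23, 18, 35 and 21. Control 2, 3 and 5 were above all model mice, and the other 3 were within the range of the model mice. The means were 59.2 ± 32.0 and 26.3 ± 7.79 (SD, n = 6 each), and the difference of -32.8 gave an exact permutation p of 0.0541.

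Salidroside mice had 8, 13, 46, 12, 72 and 21 members, tyrosol mice 23, 16, 8, 4, 46 and 27, and hydroxytyrosol mice 16, 19, 19, 25, 13 and 14. The hydroxytyrosol mice were the most even. Their mean of 17.7 ± 4.37 (SD, n = 6) differed from model by -8.67 (interval -16.7 to -0.5), with exact permutation p = 0.0433 and 0.108 after adjustment over the 4 comparisons. The unadjusted p was 0.05 or more without any 1 of 9 of the 12 mice (hydroxytyrosol 1, 2, 3, 5 or 6, or model 1, 2, 3 or 5). Salidroside differed from model by 2.33 (exact permutation p = 0.872) and tyrosol by -5.67 (exact permutation p = 0.442). Between the compounds the differences were 8, -3 and 11 members for salidroside against tyrosol, hydroxytyrosol against tyrosol and salidroside against hydroxytyrosol (intervals -18 to 34.5, -17.7 to 10.5 and -8.33 to 33), each with an adjusted p of 0.721 in the exact permutation test.

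The number of members rises with the number of family counts, so it was also taken at an equal number of family counts, a choice made after the data were seen. In 140 family counts, the lowest number of a mouse, control mice had an expected 16.9 ± 5.26 members and model mice 17.0 ± 4.40 (SD, n = 6 each), with exact permutation p = 0.959. Salidroside mice had 13.3 ± 3.85, tyrosol mice 13.7 ± 3.23 and hydroxytyrosol mice 10.1 ± 2.81 (SD, n = 6 each). At equal counts control and model mice thus differed by 0.140 members, and hydroxytyrosol differed from model by -6.94 (exact permutation p = 0.0108). Salidroside and tyrosol differed from model by -3.65 and -3.32 (exact permutation p = 0.154 and 0.165). Between the compounds the exact permutation p was 0.864 for salidroside against tyrosol, 0.0693 for hydroxytyrosol against tyrosol and 0.128 for salidroside against hydroxytyrosol. None of these p-values was adjusted.

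**Figure D4:**
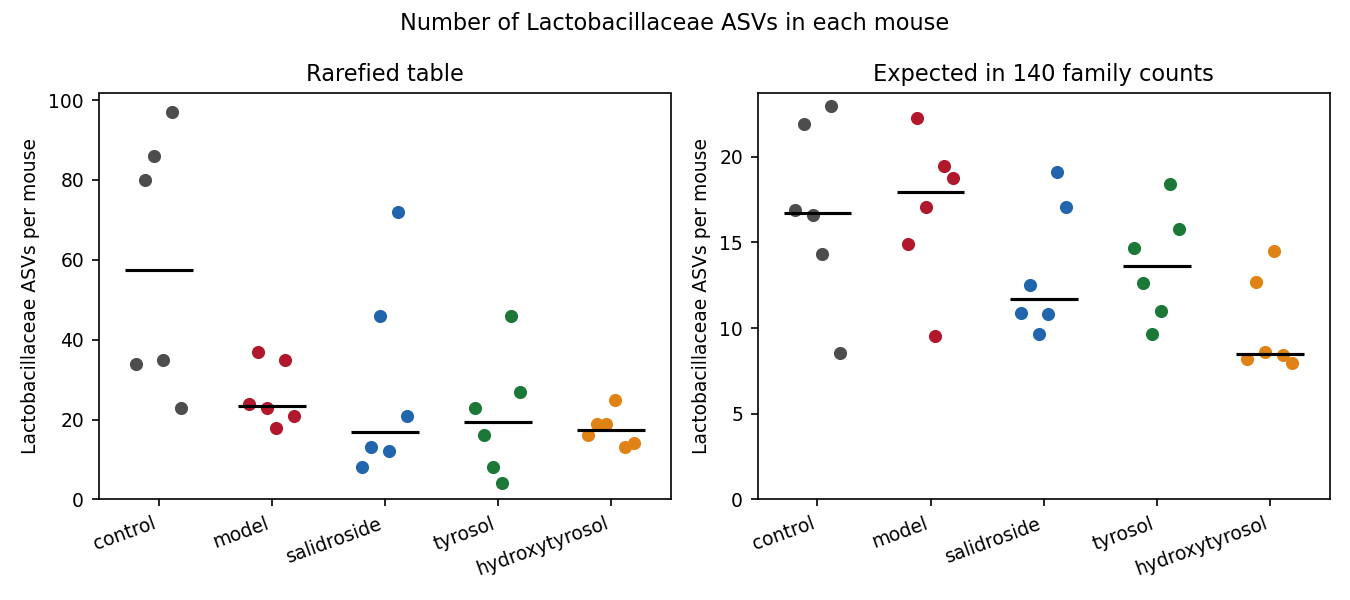
Number of Lactobacillaceae ASVs in each mouse in the rarefied table (left) and expected in 140 family counts (right). Each point is a mouse and each bar the median of its group; on the left 3 control mice (80 to 97) stand above all others, and on the right control and model mice cover similar ranges (8.54 to 22.9 and 9.54 to 22.2) while 4 hydroxytyrosol mice lie between 7.95 and 8.60.

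Of the members, 5 were found in every group (1.06% of them, and 1.73% of all ASVs of the series were), and these 5 held 73.1% of the family counts. Control mice had 250 members in all, of which 189 were found in control mice only. These 189 were 40.1% of the members, where 29.7% of all ASVs were found in control mice only, a difference that was not tested. They held 5.86% of the family counts, and 26 of them were found in more than 1 control mouse. Model, salidroside, tyrosol and hydroxytyrosol mice had 116, 137, 93 and 81 members in all.

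Single members were tested over the whole table of ASVs, with a filter of 10 or more counts in 4 or more of the 12 compared mice. The filter left 9 to 17 members per comparison and 28 in any, which held 90.7% of the family counts, and 443 members were not tested. A member passed it through the group in which it was high, so the counts of calls describe the tested members only. In model against control mice 5 of 17 tested members were called and all were lower, where edgeR called 30.4% of all ASVs and 23.1% as lower.

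ASV_83170, the Lactobacillus helveticus sequence of the control mice, was at least 285-fold higher in control than in model mice (at least 184-fold without control 2), where the model mice were set at the floor of 3 counts per mouse, averaged over them (edgeR adjusted p = 0.00548). The other 4 were unidentified Lactobacillus. ASV_65431 was at 0.0246% to 0.157% in 5 control mice and at 0 counts in control 6 and all model mice, at least 22.1-fold higher in control (16.4-fold without the highest mouse; edgeR adjusted p = 0.00551). ASV_50051 and ASV_85881 were each found in 4 control mice and in 0 model mice, at least 22.6-fold and 23.2-fold higher (11.5-fold and 16.9-fold without the highest mouse; edgeR adjusted p = 0.00551 for both).

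ASV_22399 was found in all 6 control mice at 0.0143% to 0.296% and in 1 model mouse at 0.0225%, with a log2 fold change of -6.34 (SE 2.58, edgeR adjusted p = 0.0463). Its call was lost when any 1 of 10 mice was left out, and held only without control 6 or model 4. The calls of ASV_83170 and ASV_65431 held with each mouse left out. ASV_50051 and ASV_85881 were each in 4 of the 12 mice, the least the filter takes, so without any of these 4 they were not tested, and with any other mouse left out their calls held. With the replicate number as a block, which did not pair the mice, the call of ASV_83170 held and the other 4 were lost (edgeR adjusted p of 0.0570 for ASV_65431, 0.0647 for ASV_50051, 0.0677 for ASV_85881 and 0.0683 for ASV_22399). Without the filter on low counts all 5 calls were lost, with adjusted p of 0.0936 to 0.125. Over the 7 alternatives the edgeR, DESeq2 and limma adjusted p of ASV_22399 ran from 0.00789 to 0.142, and 2 of them called it.

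These 5 members did not all stay low in the treated groups. ASV_65431 and ASV_85881 were found again in salidroside 3 (0.0261% and 0.0544%) and salidroside 5 (0.175% and 0.230%), the mice with the highest family shares of their group, and ASV_85881 in tyrosol 5 (0.0424%). ASV_83170, ASV_50051 and ASV_22399 had 0 counts in all treated mice.

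Among the other abundant members, some were lower in model than in control mice without passing the test and some were higher. ASV_73392, the main Lactobacillus vaginalis sequence, was at 0.0335% to 2.97% in control and at most 0.0948% in model mice (log2 fold change -4.27, SE 2.34, edgeR adjusted p = 0.176). ASV_2786 was in all 6 control mice at 0.0300% to 1.43% and in 2 model mice at up to 0.0923% (-4.29, SE 2.38, edgeR adjusted p = 0.180). ASV_34737 was in 5 control and 2 model mice (-2.11, SE 2.15, edgeR adjusted p = 0.510). ASV_46022 and ASV_64472 had 0 counts in control mice and were in 3 model mice, at least 18-fold and 16.5-fold higher in model (8.35-fold and 6.17-fold without the highest mouse), and were in too few mice to be tested. ASV_2724 was in 1 control and 5 model mice (2.69, SE 2.08, edgeR adjusted p = 0.379).

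In hydroxytyrosol against model mice 2 of 9 tested members were called, no larger a share than the 32.8% of all ASVs that were. ASV_2724, an unclassified Lactobacillus, was at 0.00541% to 0.0912% in 5 model mice and at 0 counts in hydroxytyrosol mice, at least 8.49-fold lower with hydroxytyrosol (4.89-fold without model 4; edgeR adjusted p = 0.00434). ASV_53047, an unidentified Lactobacillus, was found in hydroxytyrosol mice 1 to 4 at 0.0148%, 0.0195%, 0.0251% and 0.129% and in no other mouse of the series. It was at least 10.2-fold higher than in model mice, and 3.84-fold without hydroxytyrosol 4 (edgeR adjusted p = 0.00488). Each had 10 or more counts in 4 of the 12 mice only (model 1, 4, 5 and 6 for ASV_2724, hydroxytyrosol 1 to 4 for ASV_53047), so neither was tested without any of these, and both calls held with any other mouse left out. In salidroside and in tyrosol against model mice edgeR called 0 of 11 and 0 of 13 members (4.19% and 8.49% of all ASVs called), and DESeq2 called 0 in both. At an unadjusted edgeR p under 0.05 there were 1 and 0 members, where 8.10% and 13.4% of all ASVs were.

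Between hydroxytyrosol and tyrosol mice 3 of 11 members were called, about the share of all ASVs (27%). ASV_2724 and ASV_53047 differed in the same directions as before, at least 19.0-fold (13.7-fold without the highest mouse) and 10.3-fold (3.89-fold), with edgeR adjusted p of 0.0119 and 0.0128. ASV_83626, an unidentified Lactobacillus, was in 5 tyrosol mice at 0.00094% to 0.0176% and in 0 hydroxytyrosol mice, at least 2.65-fold lower (edgeR adjusted p = 0.0119). Again each had 10 or more counts in 4 mice only (tyrosol 1, 2, 5 and 6, or hydroxytyrosol 1 to 4) and was not tested without any of these. With centred log-ratios in limma the calls of ASV_2724 (adjusted p = 0.166) and ASV_83626 (0.249) were lost, and with the replicate block in edgeR those of ASV_53047 (adjusted p = 0.0518) and ASV_83626 (0.0952). ASV_53047 was absent from salidroside mice too, with an edgeR adjusted p of 0.0503 in that comparison. All calls of members in hydroxytyrosol against model and against tyrosol mice were lost without the filter on low counts (adjusted p of 0.100 to 0.117).

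Between salidroside and hydroxytyrosol mice 2 of 10 members were called, where 10.7% of all ASVs were, 3.11% as lower with salidroside. ASV_46022, an unidentified Lactobacillus, was at 0.340%, 0.139%, 0.345%, 0.239%, 0.145% and 0.615% in hydroxytyrosol mice 1 to 6. ASV_64472, an unclassified Lactobacillus, was at 0.294%, 0.111%, 0.327%, 0.257%, 0.118% and 0.521% in the same mice. Both had 0 counts in every salidroside mouse and in every control mouse. They were at least 75.2-fold and 67.1-fold lower with salidroside (59.8-fold and 54.8-fold without hydroxytyrosol 6; edgeR adjusted p = 0.0129 for both), and both calls held with each mouse left out and were lost without the filter on low counts (adjusted p = 0.102).

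The pair was found together in 11 mice, where ASV_64472 had 0.697 to 1.21 counts per count of ASV_46022, and ASV_46022 alone was in 2 more. In model mice both were in mice 1, 4 and 6, at 0.136%, 0.295% and 0.0498% for ASV_46022. The hydroxytyrosol group was above the model group in mean, but edgeR called neither (log2 fold change 1.98, SE 1.96, adjusted p = 0.478 for ASV_46022 and 1.95, SE 1.96, adjusted p = 0.480 for ASV_64472). Between salidroside and tyrosol mice edgeR called 0 of 12 members and 0% of all ASVs, and DESeq2 called 0. At an unadjusted edgeR p under 0.05 there were 3 of the 12, where 7.11% of all ASVs were. Of these, ASV_22018 and ASV_73525 were higher with salidroside and ASV_46022 was lower.

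ASV_72497, an unclassified Lactobacillus, had 0 counts in all control and model mice. It was found in salidroside 3, 5 and 6 at 2.01%, 0.628% and 0.0534%, in tyrosol 1, 5 and 6 at 0.152%, 0.312% and 0.151%, and in hydroxytyrosol 1 and 6 at 0.815% and 0.198%. It was in too few mice to pass the filter against model mice and was not tested there. At the floor of 3 counts per model mouse, its mean was at least 145-fold higher with salidroside, 33.1-fold with tyrosol and 54.5-fold with hydroxytyrosol, or 44.1-fold, 19.6-fold and 12.8-fold without the highest mouse of each. Between the compounds it was tested in all 3 pairs, with edgeR adjusted p of 0.944, 0.789 and 0.766.

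**Figure D5:**
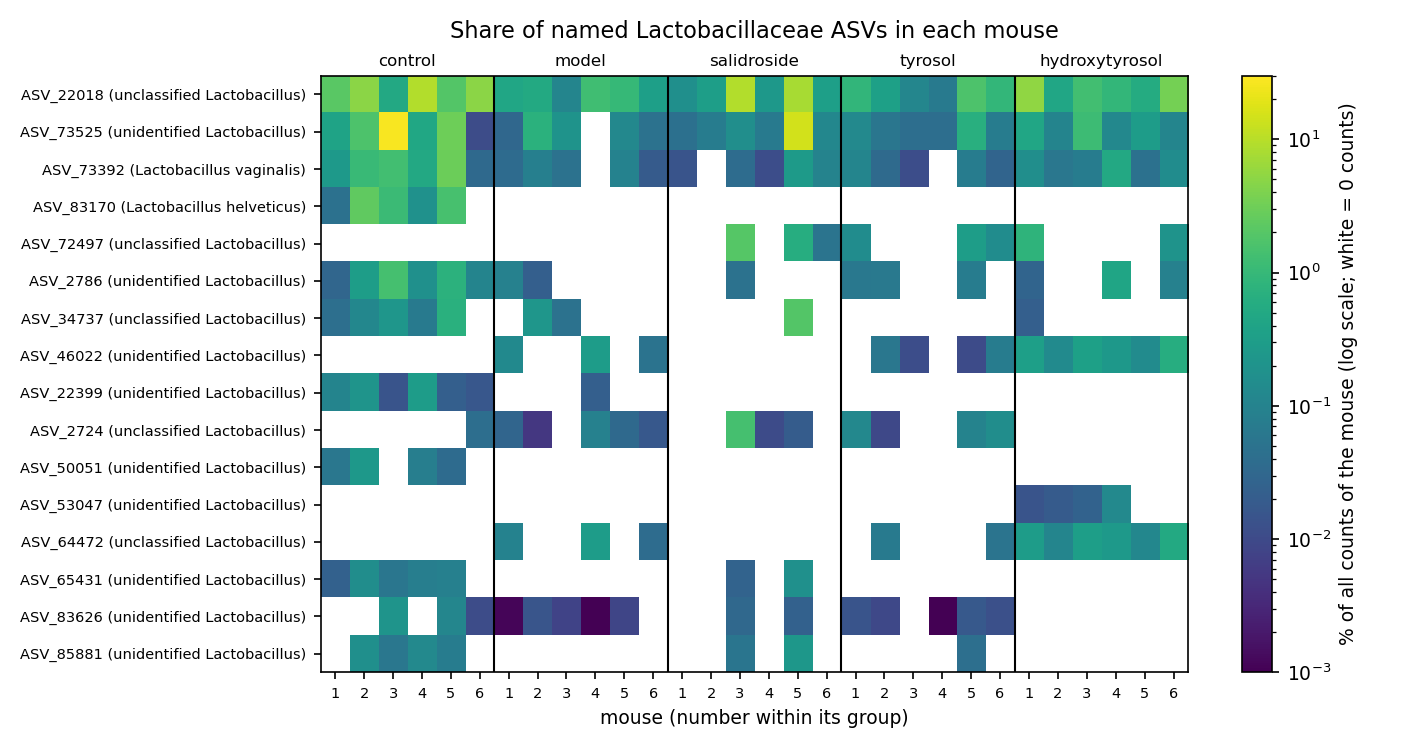
Share of 16 Lactobacillaceae ASVs in each mouse, as percent of all counts on a log colour scale, with white for 0 counts. ASV_83170 is coloured in 5 control mice only, ASV_46022 and ASV_64472 in all 6 hydroxytyrosol mice and in 0 control and 0 salidroside mice, and ASV_72497 only in mice given a compound.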

How the data were processed

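The authors merged reads with FLASH, quality-filtered them with QIIME and removed chimeras. They deposited counts per sequence, which are whole numbers without normalization, with a taxonomy per sequence. Their log lists a denoising step, so sequences are called ASVs here, while the study's methods describe operational taxonomic units, that is, clusters of similar sequences. If the features are such clusters, each ASV and each ASV number stands for clusters rather than distinct sequences. The taxonomy database is not given in the sources used here. Shares were computed from the filtered table and ASV numbers from the table the authors rarefied to 39768 counts. Within groups 0 of 75 pairs of mice had identical counts. The pioglitazone group is not analysed here.

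Groups and mouse numbers come from the sample labels. Columns of the tables are numbered otherwise for model, salidroside and hydroxytyrosol mice. Shares and ASV numbers were compared through the difference in means with an exact permutation test (two-sided), and intervals hold the differences that this test does not refuse at 0.05. The Kruskal-Wallis test used 100000 resamples. Counts per family, label and ASV were tested over the whole table with edgeR 4.0.16 in R 4.3.3 (quasi-likelihood, TMM, at least 10 counts in at least 4 of 12 mice), with Benjamini-Hochberg adjustment. The SE and intervals given with edgeR are not its own output but were derived from its log2 fold change and F statistic. A call is an adjusted p under 0.05. Alternatives were TMM with singleton pairing, no TMM, DESeq2 1.42.0 (poscounts), centred log-ratios (0.5 added) with limma 3.58.1, no filter, all 30 mice in one model, a replicate block, other tables, totals without Acinetobacter, mean ranks, log10 shares, at least 2 counts for presence, an equal number of family counts (added after the data were seen), and each mouse left out. The procedures were tested on simulated data.

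Named are every label, the 8 ASVs of highest mean share, every called label or ASV, and the other families of Lactobacillales with Bifidobacteriaceae. The members and lists were chosen with earlier results of these data known.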

Additional observations from a re-analysis of the deposited data

Results flagged for a closer look

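Values of single mice that stood apart from the other 5 of their group by Dixon's test are given here, for 14 measures and 61 sets of 6 mice with a spread. There were 24 of them. Chance gives about 1 in 20 for normally distributed values, which these shares, many of them 0, need not be, and many came from the same mice, so they are not independent. All 24 were the highest value of their group. Their cause was not tested.

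Control 3 stood apart with a Lactobacillaceae share of 36.2% (the others up to 13.5%), with 32.0% unidentified Lactobacillus and with 27.4% ASV_73525. Control 5 stood apart with 0.704% ASV_34737. Salidroside 5 stood apart with 17.4% unidentified Lactobacillus, 2.68% Lactobacillus vaginalis, 14.6% ASV_73525, 0.276% ASV_73392 and 1.93% ASV_34737. Salidroside 3 stood apart with 2.01% ASV_72497 and with 0.0490% ASV_2786.

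In the model group, mouse 2 stood apart with 0.515% Lactobacillus vaginalis, 0.725% ASV_73525 and 0.226% ASV_34737, and mouse 1 with 0.0923% ASV_2786. In the tyrosol group, mouse 5 stood apart with 1.19% unidentified Lactobacillus and 0.677% ASV_73525. In the hydroxytyrosol group, mouse 4 stood apart with 0.535% Lactobacillus vaginalis, 0.503% ASV_73392 and 0.434% ASV_2786, mouse 1 with 0.815% ASV_72497 and 0.0227% ASV_34737, mouse 3 with 1.195% ASV_73525, and mouse 6 with 0.00796% Lactobacillus helveticus.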

How the results depend on the processing

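Of 219 alternatives over 36 results, leaving out single mice aside, 189 kept the direction and the side of the threshold, and the cause of the other changes was not tested. The lower share in model mice kept both under every alternative. Other share differences that turned were salidroside against model by mean rank (-1.33), hydroxytyrosol against model without Acinetobacter (-0.566), and salidroside against hydroxytyrosol by log10 (-0.235) and mean rank (-2). For ASVs per mouse, model against control passed with at least 2 counts (-26.5) and turned at equal family counts (0.140), hydroxytyrosol against model no longer passed with at least 2 counts (-6.5), and salidroside turned at equal family counts against model (-3.65) and tyrosol (-0.332). The log2 fold change passed in model against control with DESeq2 (-2.14) and turned in salidroside against hydroxytyrosol with centred log-ratios (-0.38). Without the filter 0 ASVs were called in model against control, hydroxytyrosol against model, hydroxytyrosol against tyrosol and salidroside against hydroxytyrosol, and 1 label each in salidroside against tyrosol and against hydroxytyrosol. DESeq2 called 8 of 17 tested members in model against control and 7 of 11 in hydroxytyrosol against tyrosol, and centred log-ratios 4 of 9 in hydroxytyrosol against model. In model against control 2 of 5 tested labels were called with no TMM, DESeq2, centred log-ratios and all 30 mice. The share of all ASVs or labels called was counted for the main fits only. Counts of calls under alternatives, or with mice left out, therefore cannot be set against such a share.

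Mouse numbers did not pair the mice (same-number correlations -0.465 to 0.397). With the replicate block, ASVs per mouse gave -32.8 (exact permutation p = 0.03125) in model against control, which then passed, and -8.67 (exact permutation p = 0.125) in hydroxytyrosol against model, which no longer passed. The log2 fold change turned to -0.0135 in salidroside against model and -1.32 in salidroside against hydroxytyrosol, and in model against control 1 ASV (ASV_83170) and 0 labels were called.

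With single mice left out, the share difference ranged from 1.56 to 8.28 in salidroside against model, 1.80 to 8.53 in salidroside against tyrosol (both lowest without salidroside 5), -0.681 (without tyrosol 5) to -0.00773 (without tyrosol 4) in tyrosol against model, 1.22 to 2.57 in hydroxytyrosol against model, 1.46 to 2.81 in hydroxytyrosol against tyrosol and -0.481 to 6.24 in salidroside against hydroxytyrosol. ASVs per mouse ranged from 2.33 (without salidroside 5) to 15.1 in salidroside against hydroxytyrosol, -10.7 (without tyrosol 5) to -2.33 (without tyrosol 4) in tyrosol against model, -40.1 to -25.3 in model against control, -6.33 to 6.47 in salidroside against model, -10.3 to -6.53 in hydroxytyrosol against model, -0.667 to 13.1 in salidroside against tyrosol and -6.33 to 2.07 in hydroxytyrosol against tyrosol. The log2 fold change ranged from 0.92 (without salidroside 5) to 2.53 in salidroside against model, 0.69 (without hydroxytyrosol 1) to 2.33 (without tyrosol 5) in hydroxytyrosol against tyrosol, 0.056 (without salidroside 5) to 2.57 (without hydroxytyrosol 1) in salidroside against hydroxytyrosol, -1.30 to 0.0296 in tyrosol against model and -0.13 to 1.36 in hydroxytyrosol against model. Calls of ASVs ranged from 2 to 10 in model against control, 1 to 2 in hydroxytyrosol against model and 1 to 4 in hydroxytyrosol against tyrosol.

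The mice behind these changes were as follows. Signs turned without salidroside 5 (share against hydroxytyrosol, ASVs per mouse against model and tyrosol), salidroside 3 (ASVs per mouse against model), tyrosol 5 (ASVs per mouse, hydroxytyrosol against tyrosol), model 2 (log2 fold change, tyrosol against model) and hydroxytyrosol 1 (log2 fold change, hydroxytyrosol against model). The unadjusted p came under 0.05 without hydroxytyrosol 2 or 5 (share, hydroxytyrosol against model and against tyrosol), tyrosol 5 (share, hydroxytyrosol against tyrosol), and model 2 or control 6 (ASVs per mouse, model against control). Calls of ASVs moved by over 1.5 times without any control mouse in model against control, without model 1, 4, 5 or 6 or hydroxytyrosol 1, 2, 3 or 4 in hydroxytyrosol against model, and without tyrosol 1 or 2 in hydroxytyrosol against tyrosol. Part of these losses are members that no longer passed the filter and were not tested.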

Other observations

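Salidroside 5 and model 2 shared members that were rare elsewhere, which were picked after their values were seen. ASV_36450, ASV_14687 and ASV_71763, all labelled Lactobacillus vaginalis, held 0.854%, 0.779% and 0.747% of the counts in salidroside 5 and 0.106%, 0.114% and 0.0823% in model 2. Among the other 28 mice only model 3 carried any of them, ASV_36450 at 0.0188%. ASV_73290, an unclassified Lactobacillus, was at 1.15% in salidroside 5, 0.173% in model 2, 0.0257% in model 3 and 0.0115% in model 5. Salidroside 5 alone carried ASV_50978, a Lactobacillus salivarius sequence, at 1.27% and ASV_15254, an unclassified Lactobacillus, at 0.985%. Control 3 and salidroside 5 together held 42.3% of the family counts of the series.

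Other lactic acid bacteria of the order Lactobacillales, and Bifidobacteriaceae, were tested in the same edgeR fits at family level. Enterococcaceae rose in model against control mice, from a mean of 0.329% to 4.02% (log2 fold change 5.39, SE 1.53, edgeR adjusted p = 0.0137). Carnobacteriaceae fell in salidroside against model mice, from 0.0465% to 0.00279% (log2 fold change -3.98, SE 1.41, edgeR adjusted p = 0.0432). Streptococcaceae, Aerococcaceae, Bifidobacteriaceae and unclassified Lactobacillales were not called where they were tested. Aerococcaceae held 0.299% in salidroside and 4.16% in hydroxytyrosol mice, with a log2 fold change of -3.22 (SE 1.10, edgeR adjusted p = 0.152).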
